A study of Mus musculus with 6 samples.

Results

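The miR-129 arms are the mature microRNAs (miRNAs) that the deposited read tables name as miR-129 in any copy or arm, and they were selected by that name alone over all 6 libraries. There were 3 of them among 1055 mature miRNAs: miR-129-5p, miR-129-2-3p and miR-129-1-3p. The family was picked for description because the genotype ratio of miR-129-5p in these same libraries was already known, so the genotype values of the 3 arms are given as a description and are not independent evidence of a change. Small RNA from whole brain was sequenced from 3 wild-type and 3 Adar2-/- female mice of the SV129 background, aged 5.5 months and drawn from the offspring of heterozygous crosses. Adar2-/- mice lack the editing enzyme ADAR2 constitutively, in every cell. According to the methods, all 6 mice were also homozygous for the pre-edited Gria2 allele (Gria2 R/R), which rescues the early death of the knockout, so the wild-type group is wild type at Adar2 only. Each brain gave 1 library that was run on a sequencing lane of its own, so lane and brain cannot be told apart, and replicate numbers 1 to 3 name the brains of each genotype.

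A miRNA hairpin is cut out of its primary transcript by Drosha and opened by Dicer into a duplex, whose 5p strand comes from the left side of the stem and whose 3p strand comes from the right side. Either strand can be loaded into Argonaute, where its seed (bases 2 to 8) selects target mRNAs. miR-129-5p is a neuron-enriched miRNA known for repressing the potassium channel mRNA Kcna1 in dendrites under the control of mTORC1 signalling, and for repressing the calcium pump mRNA Atp2b4 and the microtubule protein mRNA Dcx when synapses are scaled down. miR-129-3p is known for acting on a centriole capping protein during the formation of cilia. ADAR2 deaminates adenosine to inosine in double-stranded RNA, and miRNA hairpins are among its substrates.

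The hairpins are shown because they decide which reads can be told apart, with both mature arms in capitals, from 5′ to 3′.
Mir129-1: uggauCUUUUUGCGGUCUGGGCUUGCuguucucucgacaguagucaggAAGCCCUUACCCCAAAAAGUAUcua
Mir129-2: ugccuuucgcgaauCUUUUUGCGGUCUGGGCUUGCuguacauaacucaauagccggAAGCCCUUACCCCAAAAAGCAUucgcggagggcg
These are the RefSeq hairpins, which were identical in letters to the NCBIM37 genome. Mir129-1 has 73 bases and lies at chr6:28972619-28972691 on the plus strand. It overlapped no annotated gene, and the nearest one, the non-coding Gm3294, ended 453 bases before it, with the leptin gene Lep 37528 bases after it. Mir129-2 has 90 bases and lies at chr2:94081521-94081610 on the minus strand, also outside annotated genes, between the coding genes Hsd17b12 and Ttc17. The capitals on the right of Mir129-1 are the stretch that best matched miR-129-2-3p, since the mature sequence of miR-129-1-3p was not used here. That stretch and miR-129-2-3p differed at 1 position, C20U, counted from 1 at the 5′ end with the base of miR-129-2-3p first. In the predicted fold of each hairpin, 16 of the 21 bases of miR-129-5p paired with the 3p stretch, and the minimum free energy was -31.0 kcal/mol for Mir129-1 and -48.0 kcal/mol for Mir129-2.

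The mature sequences are shown because their seeds and their adenosines bear on what each row can report, with the seed in capitals.
miR-129-5p: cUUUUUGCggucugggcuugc
miR-129-2-3p: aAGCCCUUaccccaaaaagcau
miR-129-5p is 21 bases long and is the same in both hairpins, so its reads hold the product of both and cannot be divided between them. miR-129-5p holds 0 adenosines, the base that ADAR2 acts on, which was so for 18 of 1679 mouse mature sequences in RefSeq (1.07%). No A-to-I change can therefore lie within the mature 5p arm itself. miR-129-2-3p is 22 bases long and holds 9 adenosines, and edited and unedited reads are not separated in its count. Neither seed was found in any other of these RefSeq mature sequences, which do not hold miR-129-1-3p. The 3p stretch of Mir129-1 has the same bases 2 to 8 as miR-129-2-3p, since the position at which they differ lies outside the seed. RefSeq also lists Mir129b on the opposite strand within Mir129-2, and 0 rows of the read tables carry that name.

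Reads were counted per mature miRNA and are given as RPM, that is, divided by the total mapped miRNA reads of the library and multiplied by 1000000. Those totals were 12449633 to 23471819 for the wild-type libraries and 18645810 to 23935544 for the Adar2-/- libraries, and wild-type replicate 1 was the shallowest. The lowest count of a miR-129 arm in any library was 1712 reads, a counting error of 2.42%, which is smaller than the spread between the libraries of a genotype. That spread holds brain, library preparation and lane together. The 3 arms together held between 1994 and 2999 RPM. The Adar2 mRNA was not analysed here, so the genotype labels were not checked against it. Some libraries stood apart in lists of miRNAs that mark other cell types. The summed level of 3 neuroendocrine miRNAs was 7459 RPM in wild-type replicate 1 against 1289 to 4714 RPM elsewhere, and that of 3 sensory miRNAs was 19159 RPM in Adar2-/- replicate 3 against 89664 to 186903 RPM elsewhere. Values without these libraries are given beside the results.

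In RPM, miR-129-5p was lower in every Adar2-/- library than in any wild-type library, miR-129-2-3p was higher in every one, and miR-129-1-3p overlapped between the genotypes. Among the 399 miRNAs tested, 12 (3.01%) lay wholly below in this way and 11 (2.76%) wholly above. The absence of overlap also depended on how the libraries were scaled, as given below. None of the 3 passed the test across all miRNAs. The test was edgeR's quasi-likelihood test with Benjamini-Hochberg adjustment on the 399 miRNAs that reached 100 reads in each of the 6 libraries. All 3 arms were among those 399, far above that minimum in both genotypes. At an adjusted p threshold of 0.05 the test called 0 of 399 miRNAs (0%), with 13 at an unadjusted p under 0.05, and DESeq2 called 1, with 40 unadjusted.

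miR-129-5p, the arm with the known neuronal targets, stood at 1933, 1226 and 987 RPM in wild-type replicates 1, 2 and 3. It stood at 855, 936 and 886 RPM in Adar2-/- replicates 1, 2 and 3. The wild-type brains were spread over a wide range with replicate 1 far on top, whereas the Adar2-/- brains lay close together, and 51.1 RPM separated the lowest wild-type library from the highest Adar2-/- library. The means were 1382 ± 492 RPM in wild type and 892 ± 40.6 RPM in Adar2-/- (SD, n = 3 each), a coefficient of variation of 35.6% against 4.55%. The ratio of means was 0.646, which is 1.55-fold lower in Adar2-/-, and the ratios within replicate numbers 1, 2 and 3 were 0.442, 0.763 and 0.898. The fitted log2 fold change was -0.63 with a standard error of 0.35 and an edgeR adjusted p of 0.988, the 16th lowest of 399 log2 fold changes. Without wild-type replicate 1 the log2 fold change was -0.31, and without Adar2-/- replicate 3 it was -0.63, so the size of the difference, but not its direction, rested in part on the first library.

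miR-129-2-3p, the partner strand from the Mir129-2 hairpin, stood at 928, 695 and 923 RPM in wild-type replicates 1, 2 and 3. It stood at 1033, 1023 and 1519 RPM in Adar2-/- replicates 1, 2 and 3. Here the highest library was Adar2-/- replicate 3, and the genotypes were 94.9 RPM apart at their nearest. The means were 849 ± 133 RPM in wild type and 1191 ± 283 RPM in Adar2-/- (SD, n = 3 each). Their ratio was 1.40, and the ratios within replicate numbers were 1.11, 1.47 and 1.65. The log2 fold change was 0.49 with a standard error of 0.33 and an edgeR adjusted p of 0.988. It was 0.28 without Adar2-/- replicate 3 and 0.56 without wild-type replicate 1.

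miR-129-1-3p, the 3p strand named for the Mir129-1 hairpin, was the least abundant arm. Its level was 138, 89.7 and 116 RPM in wild-type replicates 1, 2 and 3, and 106, 126 and 164 RPM in Adar2-/- replicates 1, 2 and 3. The genotypes overlapped, and the lowest and the highest of the 6 values were wild-type replicate 2 and Adar2-/- replicate 3. The means were 114 ± 23.9 RPM in wild type and 132 ± 29.6 RPM in Adar2-/- (SD, n = 3 each). The ratio of means was 1.15, with 0.771 within replicate number 1 against 1.40 and 1.42 within the others. The log2 fold change was 0.21 with a standard error of 0.32 and an edgeR adjusted p of 0.989, and it was 0.02 without Adar2-/- replicate 3 and 0.36 without wild-type replicate 1.

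**Figure D1:**
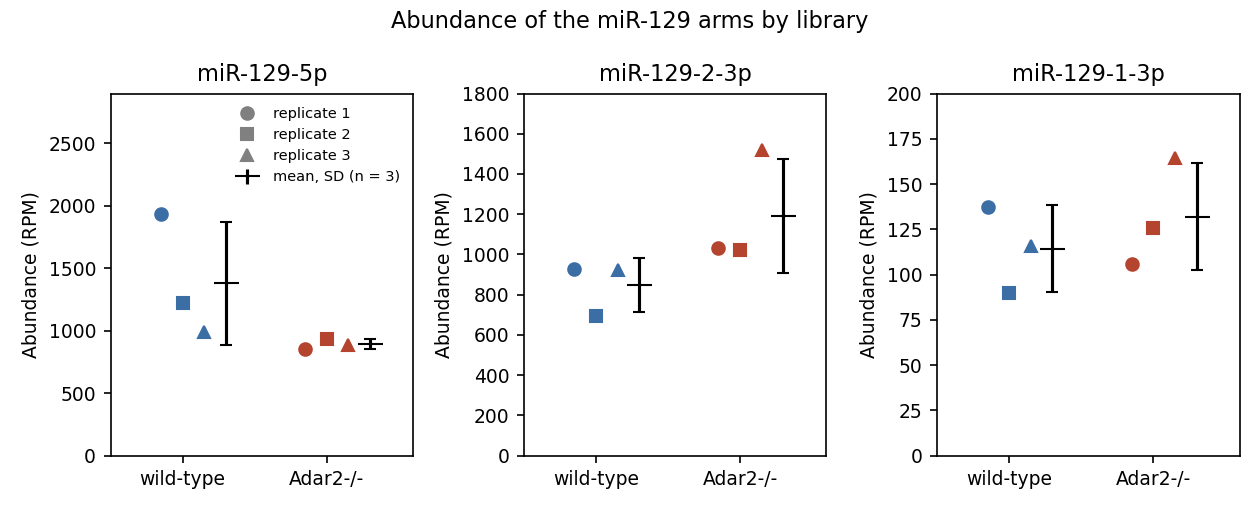
Abundance of miR-129-5p, miR-129-2-3p and miR-129-1-3p in RPM (y axis from 0, a scale of its own in each panel) in 3 wild-type (blue) and 3 Adar2-/- (red) libraries, with the mean and SD in black. The 3 Adar2-/- points of miR-129-5p (855 to 936 RPM) lie below all wild-type points, those of miR-129-2-3p (1023 to 1519 RPM) lie above all of them, and those of miR-129-1-3p overlap.

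How often other miRNAs behaved in the same way gives the background for these patterns. A level in every Adar2-/- library below every wild-type library, as for miR-129-5p, was seen in 12 of 399 miRNAs (3.01%), and a level above, as for miR-129-2-3p, in 11 of 399 (2.76%). The direction and fold criteria of the study, taken here without the test it also required, ask for 1 direction within every replicate number and a ratio of means that reaches 1.3-fold. They held for miR-129-5p among 17 lower miRNAs (4.26%) and for miR-129-2-3p among 22 higher ones (5.51%), whereas miR-129-1-3p met neither. Where the genotypes do not overlap in RPM, the direction is the same within every replicate number. For miR-129-5p and miR-129-2-3p that part of the criteria is therefore not a second result. The median log2 fold change over all 399 was 0.00, and the arms lay on opposite sides of it. With TMM scaling the ratios of means were 0.656 for miR-129-5p and 1.41 for miR-129-2-3p, and with library totals that leave out the 5 most abundant miRNAs they were 0.617 and 1.33. Under both scalings miR-129-5p and miR-129-2-3p kept their directions within all 3 replicate numbers, whereas miR-129-1-3p was lower within replicate number 1 and higher within the others. The genotype ranges of miR-129-5p then overlapped under both of these scalings, and those of miR-129-2-3p under the second only, so the absence of overlap on the RPM scale depended on the scaling.

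**Figure D2:**
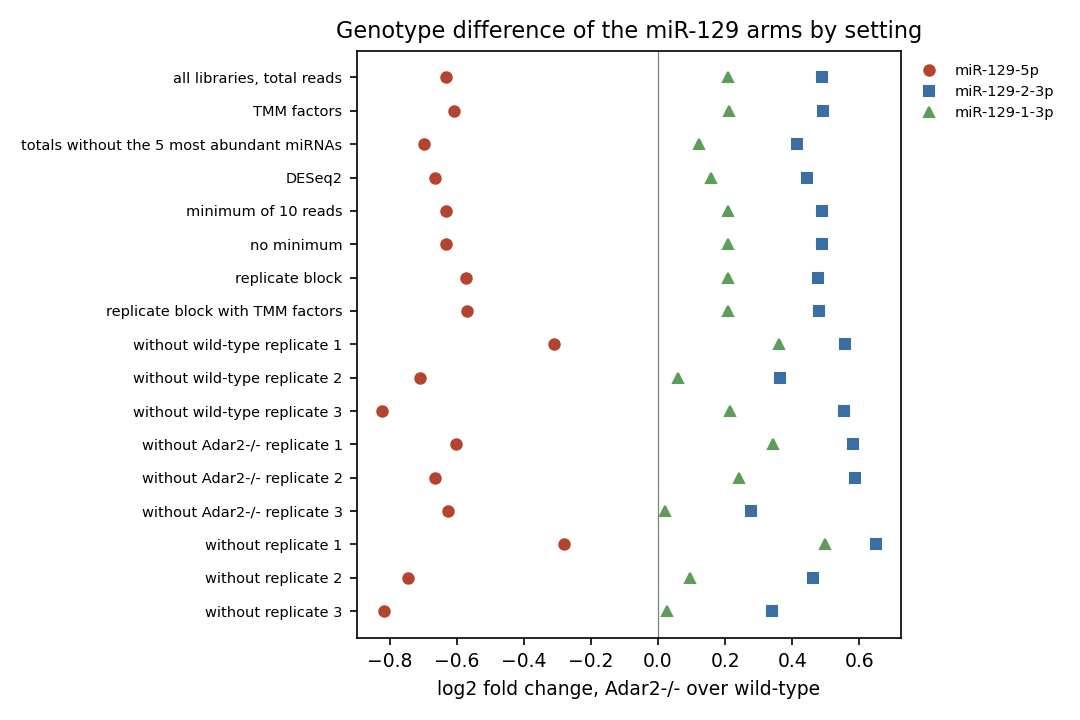
Log2 fold change of Adar2-/- over wild type (x axis) for the 3 miR-129 arms under each scaling, filter, design and left-out library (y axis, 1 line each). The points of miR-129-5p lie between -0.82 and -0.28, those of miR-129-2-3p between 0.28 and 0.65 and those of miR-129-1-3p between 0.02 and 0.50, and the 2 settings nearest to 0 for miR-129-5p are those without wild-type replicate 1.

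A ratio of 2 arms within a library needs no library size, so the balance of the strands was compared next. Such a ratio compares read counts, and ligation and amplification can favour 1 sequence over another, so its value in 1 library is not a ratio of molecules. Setting the same ratio side by side between libraries takes these preferences to be alike in each library, which was not tested. miR-129-5p had more reads than miR-129-2-3p in every wild-type library and fewer in every Adar2-/- library. The ratio was 2.08, 1.76 and 1.07 in wild-type replicates 1, 2 and 3, and 0.828, 0.915 and 0.583 in Adar2-/- replicates 1, 2 and 3. Wild-type replicate 3 was thus nearly even and lay nearer to the Adar2-/- libraries than the other wild-type brains did.

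With both 3p arms summed, since miR-129-5p comes from both hairpins, miR-129-5p took 64.5%, 61.0% and 48.7% of all miR-129 reads in wild-type replicates 1, 2 and 3. It took 42.9%, 44.9% and 34.5% in Adar2-/- replicates 1, 2 and 3. The log2 ratio of miR-129-5p over both 3p arms was 0.48 ± 0.49 in wild type and -0.54 ± 0.34 in Adar2-/- (SD, n = 3 each), a difference of -1.02, or a 2.03-fold lower ratio in Adar2-/-. Within replicate numbers the differences were -1.27, -0.94 and -0.85. The groups did not overlap, and the difference was -0.83 without wild-type replicate 1, -1.30 without wild-type replicate 3 and -0.83 without Adar2-/- replicate 3. These ratios combine the same counts as the levels above and add no independent measurement.

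The ratio of miR-129-5p to the arm from Mir129-1 went in the same direction. It shares the miR-129-5p reads with the ratios above, and miR-129-1-3p itself overlapped between the genotypes, so it is not a separate result. miR-129-5p over miR-129-1-3p was 14.1, 13.7 and 8.54 in the wild-type libraries and 8.07, 7.45 and 5.40 in the Adar2-/- libraries, a log2 difference of -0.78 with no overlap between genotypes. The 3p arms kept a steadier ratio to each other. miR-129-2-3p over miR-129-1-3p was 6.75, 7.75 and 7.99 in wild type and 9.75, 8.14 and 9.25 in Adar2-/-, so that miR-129-2-3p made up between 87.1% and 90.7% of the 3p reads. On the log2 scale this was 2.90 ± 0.13 against 3.17 ± 0.13 (SD, n = 3 each), a difference of 0.27 with no overlap, although within replicate number 2 it was only 0.07. Among 117 miRNA entries with both arms tested, the arm balance did not overlap between genotypes in 11 (9.4%). No such share was taken for a ratio of 3p rows. Reads were mapped with about 2 mismatches allowed, and the 3p stretches of the 2 hairpins differ by 1 base, so the division of reads between the 3p rows is less certain than their sum.

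**Figure D3:**
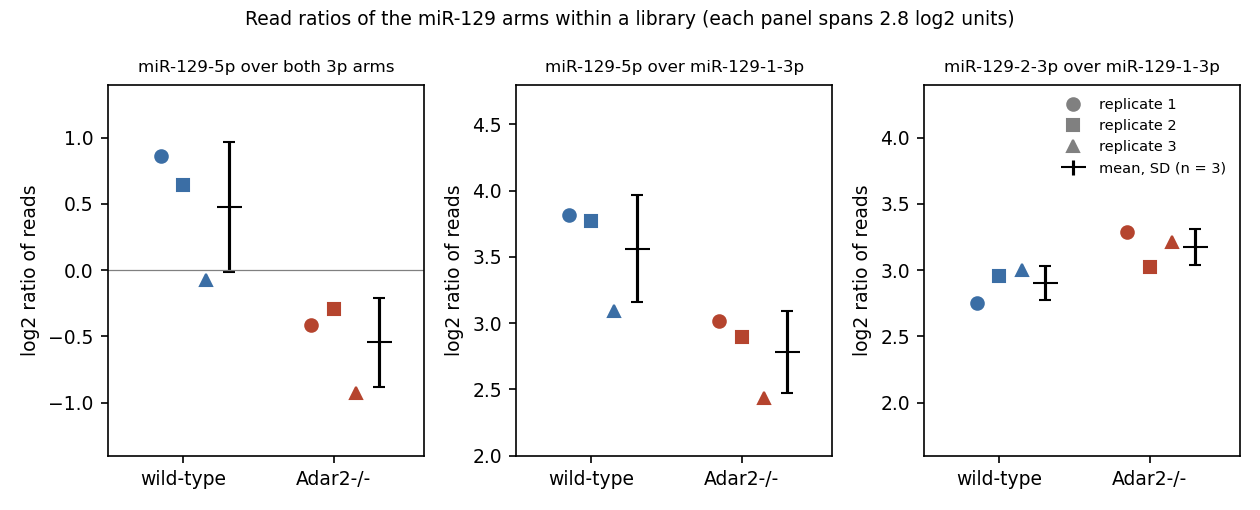
Log2 ratio of reads (y axis, each panel spanning the same range of log2 units) of miR-129-5p over both 3p arms, miR-129-5p over miR-129-1-3p, and miR-129-2-3p over miR-129-1-3p in the 3 wild-type (blue) and 3 Adar2-/- (red) libraries, with mean and SD in black. The first ratio lies between -0.07 and 0.86 in wild type and between -0.93 and -0.30 in Adar2-/-, and the last stays between 2.75 and 3.28 in all 6 libraries.

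The same ratio was taken for every miRNA entry whose 2 arms were both among the 399, which gave 117 entries, with the arm named 5p over 3p or the unstarred arm over the starred one. The absolute genotype difference had a median of 0.44 over these entries, and that of miR-129 was the 6th largest. miR-495, miR-128, miR-30b, miR-376a and miR-335 had larger ones, in each of which the first-named arm (5p or unstarred) gained. The paper equates miR-376a\* with miR-376a-5p but miR-497\* with miR-497-3p, so an unstarred arm can be either strand. Signs of starred entries can therefore not be set against that of miR-129. Of these 5, only miR-335 is named by 5p and 3p, and it went the opposite way. In 83 entries the first-named arm gained on its partner in Adar2-/- and in 34 it lost, with a median difference of 0.28. In this naming the difference of miR-129, at -1.02, had the lowest value, next to that of miR-676 at -1.01. The split and the place depend on the naming, and do not compare 5p with 3p strands. This place is also not firm because leaving out libraries moved the value of miR-129 between -1.30 and -0.83. Genotypes that do not overlap in arm balance were found in 11 of 117 entries (9.4%), among them miR-129. The spread of the miR-129 ratio within a genotype was 0.42 on the log2 scale (SD) against a median of 0.55 over the entries.

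**Figure D4:**
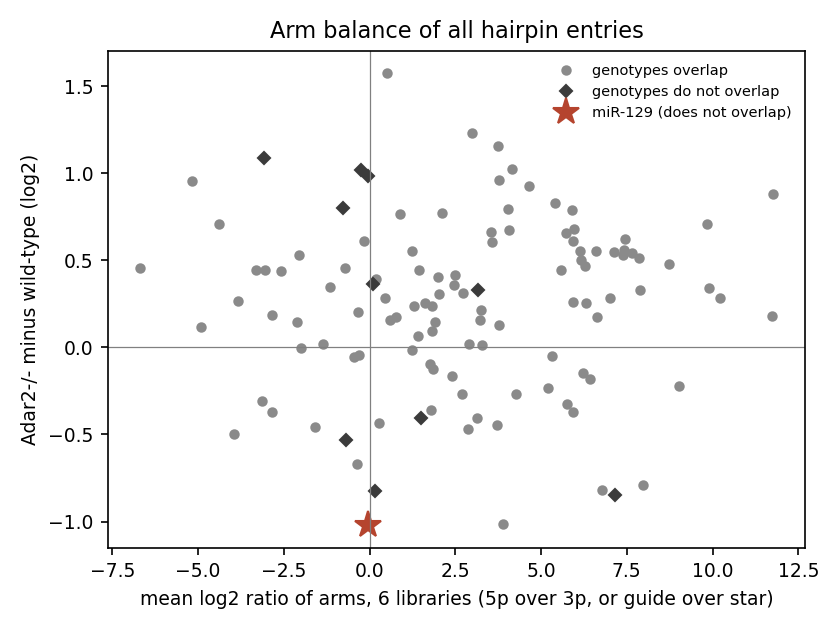
Genotype difference in arm balance (y axis, log2, Adar2-/- minus wild type) against the mean log2 ratio of the arms over 6 libraries (x axis) for 117 miRNA entries, with diamonds where the genotypes do not overlap. miR-129 (red star) lies at -1.02 on the y axis, beside miR-676 at -1.01, and at a mean log2 ratio near 0, which averages 0.48 in wild type and -0.54 in Adar2-/-.

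In order of mean level over the 6 libraries, miR-129-5p took place 74 of 1055 at 1137 RPM, between the choroid plexus miRNA miR-204 at 1193 RPM and miR-27b at 1116 RPM. miR-129-2-3p took place 79 at 1020 RPM, between miR-322 at 1034 RPM and miR-434-5p at 990 RPM. miR-129-1-3p took place 186 at 123 RPM, between miR-673-5p at 127 RPM and miR-139-5p at 123 RPM. Each arm overlapped in range with both of its neighbours over the 6 libraries, so these places are not firm. The order of the arms themselves also moved. In wild type miR-129-5p ranked above miR-129-2-3p, at places 54, 66 and 80 within the libraries against 87, 82 and 81. In Adar2-/- it ranked below, at places 78, 88 and 87 against 69, 84 and 70.

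The miRNAs most like each arm were taken as those with the highest Pearson correlation of log2 RPM over the 6 libraries, which share lane, depth and genotype with the arm, and the values are a description. For miR-129-5p these were miR-9 (r = 0.95), miR-218-2\* (r = 0.94), miR-375 (r = 0.94), miR-667\* (r = 0.93) and miR-128-2\* (r = 0.93). All 5 were highest in wild-type replicate 1, the library in which miR-129-5p was highest, and miR-375 ran there to 3294 RPM from 42.9 RPM in its lowest library. For miR-129-2-3p the most alike were miR-872\* (r = 0.97), miR-139-5p (r = 0.96), miR-376b (r = 0.95), miR-384-5p (r = 0.92) and miR-29a (r = 0.92). For miR-129-1-3p they were miR-222 (r = 0.99), miR-1957 (r = 0.99), miR-23a (r = 0.98), miR-384-5p (r = 0.98) and let-7f (r = 0.98). The 9 different miRNAs in these last lists were all highest in Adar2-/- replicate 3, as both 3p arms were. Between the arms, r was 0.85 for the 3p pair, -0.45 for miR-129-5p with miR-129-2-3p and 0.02 for miR-129-5p with miR-129-1-3p, over 6 libraries each.

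Since miR-129 is neuron-enriched and whole brain holds many cell types, lists of cell type miRNAs were set beside it. In bulk tissue, fewer cells of a type and less miRNA per cell cannot be told apart. Of 16 listed neuronal miRNAs, 15 were in the tables and tested, and 0 passed the adjusted threshold against the 0% of all miRNAs. Of these, 8 had a positive and 7 a negative log2 fold change, with a median of 0.04 against 0.00 over all 399. The most abundant, miR-9, a regulator of neural progenitors, had 125912 ± 23136 RPM in wild type and 106168 ± 6149 RPM in Adar2-/- (SD, n = 3 each). The lowest and the highest log2 fold changes were those of miR-9\*, the partner strand of miR-9, at -1.10 and of miR-137, a miRNA of neuronal maturation, at 0.98. The summed neuronal level, of which miR-9 was the largest part, was 192026 to 230938 RPM in the wild-type and 176551 to 200294 RPM in the Adar2-/- libraries. The genotypes thus overlapped in the sum, but only through wild-type replicate 3, at 192026 RPM. For miR-129-5p the genotypes did not overlap in RPM, but did under TMM scaling and with totals that leave out the 5 most abundant miRNAs. Like miR-129-5p, the neuronal sum was highest in wild-type replicate 1 and lowest in Adar2-/- replicate 1, and its part in the result was not tested.

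No marker of the other cell types that was tested passed the adjusted threshold either. Among the listed ones, 5 of 7 blood and immune miRNAs, 1 of 2 choroid plexus miRNAs and 0 of 1 liver miRNAs were tested. The summed levels overlapped between the genotypes in every list. The summed levels in wild type against Adar2-/- were 1293 to 1782 against 1449 to 1602 RPM for 4 oligodendrocyte miRNAs and 52641 to 80298 against 50321 to 61659 RPM for 4 vascular ones. They were 1882 to 4035 against 2558 to 3408 RPM for 7 blood and immune miRNAs and 838 to 1584 against 1064 to 1622 RPM for 2 choroid plexus ones. The 4 muscle miRNAs summed to 2340 to 3140 against 2255 to 3390 RPM, and the 1 liver miRNA stood at 3.95 to 4.90 against 4.16 to 7.23 RPM. The widest ranges were those of the 5 epithelial and olfactory miRNAs, at 4783 to 6267 against 738 to 9210 RPM, and of the 3 sensory ones, at 108156 to 155374 against 19159 to 186903 RPM, both lowest in Adar2-/- replicate 3. The neuroendocrine sum was highest in wild-type replicate 1, the library with the most miR-129-5p, at 7459 RPM. The part of these cell types in the miR-129 values was not tested, and 0 of the listed markers were at 0 in all libraries.

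The known targets show where the seed of miR-129-5p can pair. The site is printed because it is the only match to the seed in the 3′ UTR of Kcna1, with the bases complementary to the seed in capitals.
Kcna1: aaaccaaacacaaaGCAAAAA
The printed stretch lies at chr6:126591685-126591705 on the minus strand (NCBIM37), and its capitals start at base 195 of an annotated 3′ UTR of 5405 bases. The letters GCAAAAA, searched on the strand of the mRNA, were found 2 times in the 7709 bases of the Dcx 3′ UTR and 1 time in the 4013 bases of the Atp2b4 3′ UTR. Among genes whose 3′ UTR was within 10% of that length, 35.1% held the letters for Kcna1, 58.2% for Dcx and 26.5% for Atp2b4, and over 19915 genes the share was 9.01%. A match of letters is a description and not a tested site, and mRNA levels of these targets were not analysed here.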

How the data were processed

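Whole-brain RNA of 19 to 25 bases was cut from a gel, amplified over 15 PCR cycles and sequenced in reads of 36 bases. After adaptor removal (Cutadapt), the authors used NextGenMap to place reads on the mature miRNAs of miRBase release 16 at 90% identity or more. Reverse-strand hits were dropped and reads with equally good hits were shared out by weight. How such weights gave whole numbers is not given in the sources used here. The authors deposited raw read counts per mature miRNA in 3 tables, each with a library of either genotype. From these, 12 blank lines were dropped.

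The miR-129 rows and all lists were chosen with earlier results of these data known. The 399 miRNAs that reached 100 reads in each library were fitted in R 4.3.3 by the quasi-likelihood functions of edgeR 4.0.16, with total mapped miRNA reads as library size, without scaling factors or blocks, and with Benjamini-Hochberg adjustment. The standard errors given for edgeR were worked out from the log2 fold change and the test statistic, and are not estimated by the fit itself. The procedure was tested on simulated data. Alternatives were DESeq2 1.42.0, TMM scaling, totals that leave out the 5 most abundant miRNAs, a minimum of 10 reads or none, a replicate block, a fold of 1.5 and leaving out libraries. Replicates were separate brains. Counting errors ignore amplification, since reads are not independent molecules. The miRNAs named are the arms, the 5 most correlated with each, the neighbours in mean level, list members that are most abundant or have the largest change, and, chosen after their values were seen, the other entries with the largest arm differences. Hairpins and mature sequences came from RefSeq (GRCm38.p6), with a mature entry for 2 of the 3 arms, positions from exact matches to NCBIM37, and folds from ViennaRNA 2.7.2. 3′ UTRs came from the NCBIM37 transcripts.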

Additional observations from a re-analysis of the deposited data

How the results depend on the processing

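The direction of all 3 arms was kept under all 16 alternatives run, and none of the 3 passed the adjusted threshold in any. The log2 fold change ran from -0.82 to -0.28 for miR-129-5p (adjusted p 0.416 to 0.998), from 0.28 to 0.65 for miR-129-2-3p (0.307 to 0.998) and from 0.02 to 0.50 for miR-129-1-3p (0.377 to 0.999). It was smallest for miR-129-5p without replicate 1 of both genotypes. The difference in arm balance ran from -1.30 to -0.83 with 1 library or replicate number left out, lowest without wild-type replicate 3. Over all 399 miRNAs, DESeq2 called 1 where edgeR called 0, and edgeR called between 0 and 18 with libraries left out, 18 without replicate 1. The rule on direction and ratio gave 12 higher and 8 lower miRNAs at 1.5-fold, and 34 higher and 27 lower with TMM scaling. The causes were not tested. The main fit did not pair the replicate numbers. Deviations from the genotype mean correlated at -0.00, -0.08 and -0.01 for same-numbered libraries, against -0.03 to 0.07 for different numbers. With means of 3 libraries, these values cannot decide whether the numbers pair the samples. With a replicate block the log2 fold changes were -0.57, 0.48 and 0.21, in the order above, with 0 miRNAs called and 7 at an unadjusted p under 0.05, and the mean difference in arm balance was -1.02. With 3 libraries per genotype, the spread between libraries was larger than the counting error of the arms.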
